A study of Mus musculus with 18 samples.

Results

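Renin-angiotensin genes were followed in the right kidneys of 18 male wild-type C57BL/6 mice, labelled as 6 weeks old. They were measured by poly(A) RNA sequencing of the whole organ. In the study's methods 6 weeks is the age of the mice when bought, before acclimatization and defeat. The 9 genes were taken by name from a table of 32675 genes: Ren1, Agt, Ace, Agtr1a, Agtr1b, Agtr2, Enpep, Mme and Atp6ap2. Ctrl mice (n = 6) were handled daily and not defeated. PBS mice (labelled StressPbs, n = 6) underwent chronic social defeat stress (CSDS), daily bouts with an aggressive CD-1 mouse, with daily intraperitoneal saline. FLX mice (StressFlx, n = 6) underwent CSDS with daily fluoxetine, a serotonin reuptake inhibitor used as an antidepressant. There was no undefeated group given fluoxetine and no stated injection of the Ctrl mice, so that stress and injection cannot be told apart in PBS versus Ctrl.

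Renin is secreted by juxtaglomerular cells of the afferent arteriole and cuts angiotensinogen to angiotensin I. Angiotensin-converting enzyme makes angiotensin II from it, which raises blood pressure and sodium retention through the type 1 receptor. A second arm runs through angiotensin-(1-7) and the Mas receptor, and several brush-border peptidases of the proximal tubule break these peptides down further.

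The study deleted 1 PBS mouse, which it did not name. An earlier analysis of these data matched it to PBS replicate 6 through the published heatmaps, and that match was not repeated here. Values are therefore given for 5 PBS mice, with the value over all 6 wherever it differs in outcome. PBS replicate 6 lay outside the range of the other 17 mice for 29.2% of the 20251 genes tested. Total counts were between 72149987 and 79061296 in 14 mice and between 48928823 and 52073640 in FLX replicates 3 to 6. Groups were compared on counts with edgeR's quasi-likelihood test, with p values adjusted over all tested genes by the Benjamini-Hochberg method and a gene called at an adjusted p under 0.05. SE is the standard error of a log2 fold change. Levels are in FPKM, which is per transcript length. In whole kidney, fewer cells of a type and less RNA per cell cannot be told apart.

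The promoters of the 4 genes around which the results turn are shown first, Ace and Enpep because they were called in PBS versus Ctrl and Ren1 and Agt because they encode the enzyme and the substrate that begin the pathway. Each is the 250 bases before the RefSeq start site on GRCm38.p6, on the strand of the gene: Ren1 at chr1:133350424-133350673 (plus), Agt at chr8:124569707-124569956 (minus), Ace at chr11:105967698-105967947 (plus) and Enpep at chr3:129332750-129332999 (minus). Capitals mark matches, on either strand, to the TATA box letters TATAAA and the GC box letters GGGCGG.
Ren1: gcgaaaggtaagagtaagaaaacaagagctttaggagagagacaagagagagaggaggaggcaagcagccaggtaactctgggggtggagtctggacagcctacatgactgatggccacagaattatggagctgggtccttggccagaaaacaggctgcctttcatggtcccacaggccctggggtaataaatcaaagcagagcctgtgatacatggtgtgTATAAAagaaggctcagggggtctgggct
Agt: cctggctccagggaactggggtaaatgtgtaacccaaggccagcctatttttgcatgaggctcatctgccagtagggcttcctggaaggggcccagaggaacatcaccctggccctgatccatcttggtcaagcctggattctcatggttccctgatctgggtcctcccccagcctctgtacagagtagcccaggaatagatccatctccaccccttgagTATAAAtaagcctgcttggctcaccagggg
Ace: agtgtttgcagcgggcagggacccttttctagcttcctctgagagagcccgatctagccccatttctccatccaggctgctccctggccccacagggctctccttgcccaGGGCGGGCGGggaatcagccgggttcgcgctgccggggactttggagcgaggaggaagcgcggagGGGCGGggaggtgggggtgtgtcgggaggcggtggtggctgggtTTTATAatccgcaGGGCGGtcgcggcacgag
Enpep: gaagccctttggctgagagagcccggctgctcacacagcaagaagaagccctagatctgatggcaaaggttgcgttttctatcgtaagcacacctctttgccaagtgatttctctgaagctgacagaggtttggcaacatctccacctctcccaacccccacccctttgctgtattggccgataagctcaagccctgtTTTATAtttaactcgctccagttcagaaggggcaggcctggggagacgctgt
Ren1 and Agt held a TATA match beginning 29 and 30 bases before the start site. Ace held a minus-strand TATA match 31 bases before it with 4 GC boxes, of which the pair furthest upstream overlap, and Enpep a minus-strand TATA match 52 bases before it. Of 32851 mouse promoter windows of this length, 12.368% held TATAAA and 32.742% held GGGCGG. A second Ace window, at an internal start site (chr11:105974939-105975188), held neither. A match is a run of letters and not a measured site.

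In the Ctrl kidney 7 of the 9 genes were well expressed and the angiotensin type 1b and type 2 receptor genes were near 0. Ren1 (ENSMUSG00000070645, chromosome 1, 133350510 to 133360325), encoding renin, was highest at 42.7 ± 9.36 FPKM (SD, n = 6). Ace (ENSMUSG00000020681, chromosome 11, 105967945 to 105989964), the converting enzyme, followed at 32.4 ± 6.26 FPKM (SD, n = 6), and was below Ren1 in 6 of 6 mice although the ranges overlapped. Agt (ENSMUSG00000031980, chromosome 8, 124556534 to 124569706), encoding angiotensinogen, stood at 30.7 ± 5.87 FPKM (SD, n = 6).

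The order of Ace and Agt was not settled by the mice, since Ace was the higher in 4 of 6. Atp6ap2 (ENSMUSG00000031007, chromosome X, 12587801 to 12617049), the prorenin receptor and an accessory protein of the vacuolar proton pump, was at 27.1 ± 3.43 FPKM (SD, n = 6). Enpep (ENSMUSG00000028024, chromosome 3, 129269175 to 129332720), aminopeptidase A, which turns angiotensin II into angiotensin III, was at 18.8 ± 2.89 FPKM (SD, n = 6) and below Atp6ap2 in 6 of 6 mice. Agtr1a (ENSMUSG00000049115, chromosome 13, 30336441 to 30382867), the main rodent type 1 receptor, was at 10.3 ± 0.622 FPKM (SD, n = 6). Mme (ENSMUSG00000027820, chromosome 3, 63241537 to 63381623), neprilysin, was at 8.85 ± 1.51 FPKM (SD, n = 6). Agtr1a and Mme were next to each other, with Agtr1a higher in 5 of 6 mice and overlapping ranges. In the PBS group Ace had a lower mean level than Ren1, Agt, Atp6ap2 and Enpep, and in the FLX group a lower one than Ren1 and Atp6ap2 only.

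**Figure D1:**
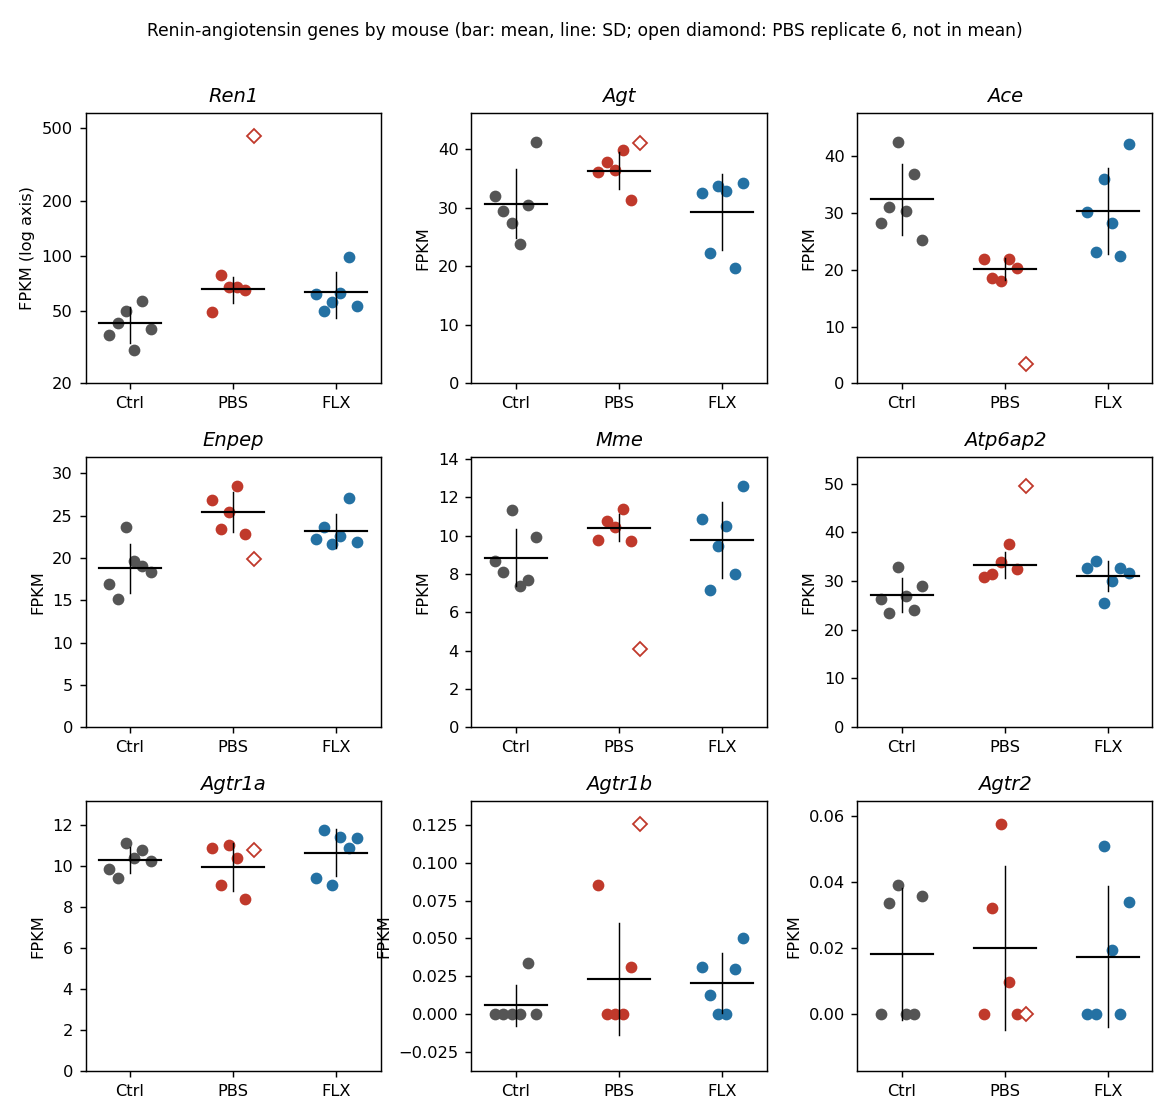
FPKM of each of the 9 genes in every mouse, by group (Ctrl, PBS, FLX), on a log axis for Ren1 and linear axes for the others. Bars are means and vertical lines SDs of 6 Ctrl, 5 PBS and 6 FLX mice, and the open diamond is PBS replicate 6, outside the mean. In FPKM all PBS mice lay below every Ctrl and FLX mouse for Ace, and Agtr1a lay between 8.40 and 11.8 in every mouse.

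Of the 8 genes that passed the filter on low counts, 2 were called in PBS versus Ctrl, Ace lower and Enpep higher, against 3.81% of all genes tested (2.14% higher and 1.67% lower). Neither reached the study's own threshold, an absolute log2 fold change over 1 with an unadjusted p under 0.05, which 3.28% of genes passed. The median log2 fold change of the 8 was 0.25, against -0.01 over all tested genes, and 6 of 8 were above 0. With all 6 PBS mice, 3 of 7 tested genes were called, Ren1, Enpep and Atp6ap2, all higher, against 4.28% of 19946 genes. Agtr2 no longer passed the filter in that fit. Agtr1b is left out of these counts. By DESeq2 4 of 8 were called (Ace, Enpep, Ren1 and Atp6ap2), against 1413 of all 20251 genes. By limma on log2(FPKM + 0.1) 3 of 7 were called (Ace, Enpep and Ren1), against 766 of 18775.

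Ace was lower in every PBS mouse than in any Ctrl mouse. Its level was 25.2 to 42.4 FPKM in the Ctrl group (median 30.7) and 21.9, 18.5, 18.05, 22.0 and 20.3 FPKM in PBS replicates 1 to 5. The log2 fold change was -0.67 (SE 0.16, adjusted p = 0.0226, edgeR), with 5 of 5 mice lower, while groups failed to overlap for 3.52% of all genes tested. PBS replicate 6 was lower still, at 3.51 FPKM. With it the log2 fold change was -0.89 and the adjusted p 0.0960, with 6 of 6 mice lower. The call was also lost without Ctrl replicate 5 (adjusted p = 0.0552). The antisense gene Gm11651 overlaps Ace on the opposite strand. The libraries were stranded, but no source used here states whether the counting used strand, so that reads of the pair may not have been told apart.

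Enpep rose in the PBS group, although the groups touched. Ctrl mice had 15.1 to 23.7 FPKM (median 18.7) and PBS replicates 1 to 5 had 26.8, 23.4, 25.5, 28.5 and 22.8 FPKM. The log2 fold change was 0.45 (SE 0.10, adjusted p = 0.0151, edgeR), and 3 of 5 PBS mice were above every Ctrl mouse. Ctrl replicate 3 held the highest Ctrl value and reached into the PBS range. Over all 6 PBS mice the log2 fold change was 0.39 (adjusted p = 0.0438). The call was lost without PBS replicate 1 or PBS replicate 4, with an adjusted p of 0.0517 at most. The pseudogene Gm42628 overlaps Enpep on the opposite strand, with the same limit on strand. Markers of the proximal tubule, whose brush border carries Enpep and Ace, gave 0 of 13 called by edgeR, 2 by DESeq2 and 0 by limma. Over all genes edgeR called 3.81%, DESeq2 1413 of 20251 and limma 766 of 18775. In edgeR 3 of the 13 had an unadjusted p under 0.05, against 17.9% of all genes. Their summed level was 2183 to 2631 FPKM in the Ctrl group and 2090 to 2431 FPKM in the 5 PBS mice.

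Ren1 was higher on average in the PBS group and did not pass the test with 5 mice. Its level was 30.4 to 56.7 FPKM in the Ctrl group (median 41.3) and 49.2, 78.4, 67.1, 67.6 and 65.1 FPKM in PBS replicates 1 to 5, so that 4 of 5 PBS mice exceeded every Ctrl mouse. The log2 fold change was 0.62 (SE 0.17, adjusted p = 0.0529, edgeR), with a 95% interval of 0.26 to 0.98. Over all 6 PBS mice it was 1.58 (adjusted p = 0.04495), with PBS replicate 6 at 452 FPKM. Among the 5 mice the adjusted p was 0.0380 without Ctrl replicate 3, 0.0271 without Ctrl replicate 5 and 0.0174 without FLX replicate 5, and was at most 0.121 over the 17 fits that each left out 1 mouse.

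Genes of renin cells and of renin's control gave 0 of 25 called by edgeR in PBS versus Ctrl, 1 by DESeq2 and 0 by limma, with 5 at an unadjusted p under 0.05 in edgeR, against 17.9% of all genes, and a median log2 fold change of 0.16. Vascular smooth muscle markers, of the vessel wall in which renin cells lie, summed to 50.6 to 75.1 FPKM in the Ctrl group, 65.5 to 101 FPKM in the 5 PBS mice and 66.6 to 131 FPKM in the FLX group. Of the 9 smooth muscle genes edgeR called 1, against 3.81% of all genes. It was Acta2, which encodes smooth muscle actin (log2 fold change 0.92, adjusted p = 0.0409). DESeq2 called Acta2 and Tagln, and limma called 0. For the lists of this paragraph the share over all genes was 1413 of 20251 by DESeq2 and 766 of 18775 by limma. The part of the vessel wall markers in the Ren1 values was not tested. Of 9 macula densa genes, which serve the tubule cells that signal to renin cells, edgeR called 1, also against 3.81%. This was Ptges (0.85, adjusted p = 0.0142). It encodes a prostaglandin E synthase.

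Atp6ap2 and Agt were higher on average in the PBS group without passing the test. Atp6ap2 was 23.5 to 32.8 FPKM in the Ctrl group (median 26.6) and 30.9, 31.4, 33.9, 37.6 and 32.6 FPKM in PBS replicates 1 to 5, with a log2 fold change of 0.31 (SE 0.09, adjusted p = 0.0668, edgeR). With PBS replicate 6, at 49.5 FPKM, it was 0.41 (adjusted p = 0.0377). The adjusted p was also under 0.05 without Ctrl replicate 3 (0.0197) or FLX replicate 3 (0.0441). Agt was 23.8 to 41.2 FPKM in the Ctrl group (median 30.0) and 36.1, 37.9, 36.5, 39.9 and 31.3 FPKM in the 5 PBS mice. Its log2 fold change was 0.25 (SE 0.15, adjusted p = 0.429), with a 95% interval of -0.07 to 0.57. Agt is also a gene of fat, and the 9 fat genes summed to 14.2 to 252 FPKM in the Ctrl group and 43.3 to 1521 FPKM in the 5 PBS mice, whose part in the Agt values was not tested.

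Agtr1a had the lowest coefficient of variation of the well-expressed members in the Ctrl group, 6.03%, but not in the 5 PBS mice (11.7%) or the FLX group (10.6%). It was 9.42 to 11.1 FPKM in the Ctrl group (median 10.3), and 10.9, 9.08, 11.0, 10.4 and 8.40 FPKM in PBS replicates 1 to 5. The log2 fold change was -0.04 (SE 0.09, adjusted p = 0.865, edgeR), with a 95% interval of -0.23 to 0.15. The sense-intronic gene Gm48161 overlaps Agtr1a on the same strand. Mme was 7.39 to 11.3 FPKM in the Ctrl group and 9.80, 10.7, 10.4, 11.4 and 9.70 FPKM in the 5 PBS mice, with a log2 fold change of 0.25 (SE 0.13, adjusted p = 0.313).

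The other angiotensin receptor genes were at the limit of detection. Agtr1b (ENSMUSG00000054988, chromosome 3, 20314473 to 20367177) had no count in 5 of 6 Ctrl mice, 3 of 5 PBS mice and 2 of 6 FLX mice, and at most 16 counts in the 17 mice. It did not pass the filter on low counts. An exact two-sided permutation test on log2(FPKM + 0.1) gave p = 0.424 for PBS versus Ctrl, 1.0 for FLX versus PBS and 0.197 for FLX versus Ctrl, where 0.00216 is the smallest p either design allows. Agtr2 (ENSMUSG00000068122, chromosome X, 21484544 to 21489164) had at most 17 counts in any mouse. In PBS versus Ctrl its SE was 1.34, with a 95% interval of -2.68 to 2.94 for the log2 fold change. Differences inside that interval were not excluded. The Agtr1a and Agtr1b transcripts share an identical run of at most 66 bases.

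**Figure D2:**
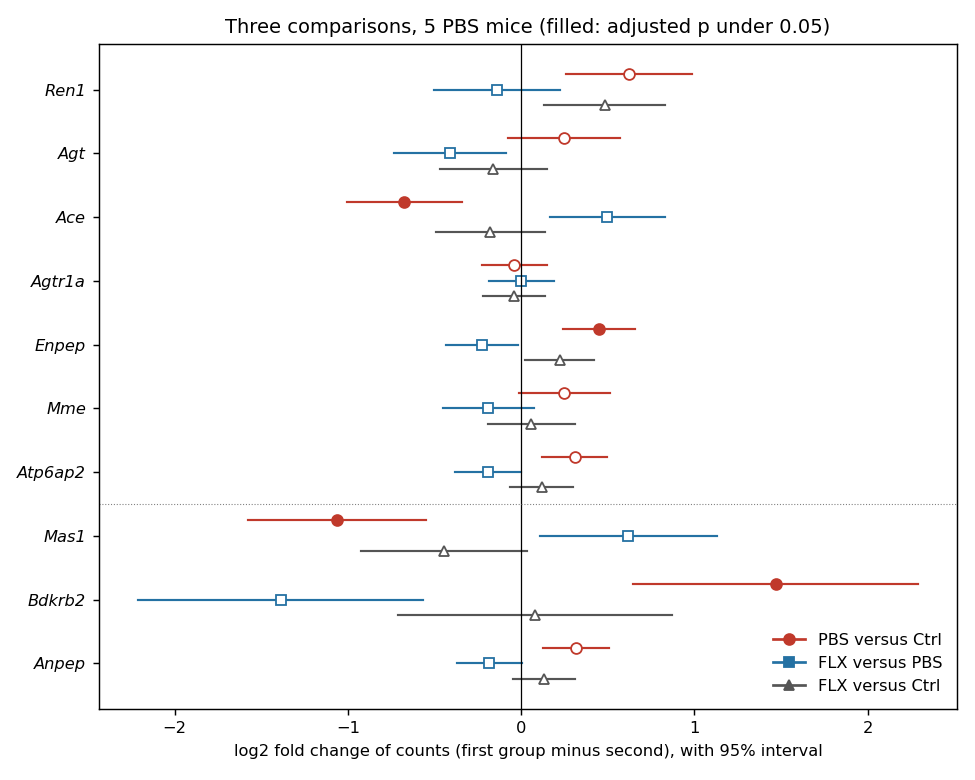
log2 fold change of counts, first group minus second, for 7 members (above the dotted line) and 3 other pathway genes, with 95% intervals, from the edgeR fit with 5 PBS mice. Circles, squares and triangles are PBS versus Ctrl, FLX versus PBS and FLX versus Ctrl, and filled symbols have an adjusted p under 0.05, which holds for Ace, Enpep, Mas1 and Bdkrb2 in PBS versus Ctrl and for no gene shown in the other comparisons.

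The comparison of FLX with PBS asks which of these levels differed under fluoxetine in defeated mice. None of the 8 members was called by edgeR, DESeq2 or limma. The shares over all genes were 0.726% by edgeR, 498 of 20251 by DESeq2 and 278 of 18775 by limma. In edgeR 4 of 8 members had an unadjusted p under 0.05, against 11.1% of all genes. Their median log2 fold change was -0.19, with 0.00 over all genes. With all 6 PBS mice 0 of 7 were called by edgeR, DESeq2 or limma. The shares over all genes were then 0.557% by edgeR, 518 of 19946 by DESeq2 and 264 of 18815 by limma. In that edgeR fit 4 of 7 had an unadjusted p under 0.05, against 12.2% of all genes. PBS mice serve in both this comparison and PBS versus Ctrl, so that the 2 are not independent.

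In FPKM Ace was higher in every FLX mouse than in any of the 5 PBS mice, at 22.4 to 42.2 (median 29.2). The log2 fold change was 0.50 (SE 0.16, adjusted p = 0.176, edgeR), with 6 of 6 FLX mice higher in FPKM. Groups failed to overlap in FPKM for 2.92% of all genes (2.45% higher and 0.469% lower). As a share of total counts FLX replicate 5 (6934 of 50801497) lay below PBS replicate 1 (9891 of 72373418), so that the groups overlapped there. FLX replicates 1 and 2, which were sequenced as deeply as the other groups, had 30.2 and 23.2 FPKM. Agt was 19.7 to 34.3 FPKM in the FLX group (median 32.7), with a log2 fold change of -0.41 against PBS (SE 0.15, adjusted p = 0.280), and FLX replicates 2 and 5 were below every PBS mouse. Among the peptidases, Enpep was 21.7 to 27.1 FPKM (median 22.4), a log2 fold change of -0.23 (SE 0.10, adjusted p = 0.380). Ren1 was 50.0 to 98.7 FPKM (median 58.7), a log2 fold change of -0.14 against the 5 PBS mice (SE 0.17, adjusted p = 0.857) and -1.09 against all 6 (adjusted p = 0.278). FLX replicate 5 held the highest Ren1 of the 17 mice and the other FLX mice lay inside the PBS range. Mme was 7.16 to 12.6 FPKM (log2 fold change -0.19, adjusted p = 0.640) and Atp6ap2 25.4 to 34.2 FPKM (-0.19, adjusted p = 0.447). Agtr1a, at 9.09 to 11.8 FPKM, had a log2 fold change of 0.00 with a 95% interval of -0.19 to 0.19.

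Compared with Ctrl, no member was called in the FLX group by edgeR, with 3.67% of all genes called, and 2 of 8 had an unadjusted p under 0.05, against 20.4% of all genes. DESeq2 and limma on log2(FPKM + 0.1) called Ren1, against 1615 of all 20251 genes by DESeq2 and 1226 of 18775 by limma. In the fit with all 6 PBS mice 0 of 7 were called by edgeR, DESeq2 or limma. The shares over all genes were then 1.77% by edgeR, 1059 of 19946 by DESeq2 and 711 of 18815 by limma. There 1 of 7 had an unadjusted p under 0.05 in edgeR, against 17.7% of all genes. Ren1 had a log2 fold change of 0.48 (SE 0.17, adjusted p = 0.110, edgeR), and 3 of 6 FLX mice were above every Ctrl mouse. Enpep had 0.22 (SE 0.09, adjusted p = 0.192), and 0.0381 as the adjusted p without Ctrl replicate 3. For Ace it was -0.18 (SE 0.15, adjusted p = 0.542), with a 95% interval of -0.49 to 0.14, and for Agtr1a -0.04 (interval -0.22 to 0.14). Agt had -0.16 (adjusted p = 0.578), Mme 0.06 (0.836) and Atp6ap2 0.12 (0.470).

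Among 19 further genes of the pathway, 17 were in the table and 15 were tested. In PBS versus Ctrl 2 of 15 were called by edgeR, Bdkrb2 higher and Mas1 lower, against 3.81% of all genes. DESeq2 called Bdkrb2, Mas1 and Anpep, against 1413 of all 20251 genes. By limma Mas1 and Anpep were called but not Bdkrb2, against 766 of 18775. In FLX versus PBS edgeR called 0, DESeq2 1 (Bdkrb2, lower) and limma 0. Over all genes edgeR called 0.726%, DESeq2 498 of 20251 and limma 278 of 18775. There 3 of 15 had an unadjusted p under 0.05 in edgeR, against 11.1% of all genes. In FLX versus Ctrl edgeR called 0, with 3 of 15 at an unadjusted p under 0.05, against 20.4% of all genes. There DESeq2 called 1 of 15 (Prep), against 1615 of all 20251 genes. By limma 1 of 14 was called (Thop1), against 1226 of 18775. Both counts were near the share over all genes. With all 6 PBS mice edgeR called 2 of 14 in PBS versus Ctrl, the same genes, against 4.28% of all genes. It called 0 in FLX versus PBS and in FLX versus Ctrl. In these, 4 and 2 had an unadjusted p under 0.05, against 12.2% and 17.7% of all genes.

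Mas1, the receptor of angiotensin-(1-7), was weakly expressed, at 0.301 to 0.598 FPKM in the Ctrl group (median 0.524). PBS replicates 1 to 5 had 0.193, 0.257, 0.222, 0.236 and 0.238 FPKM, all below every Ctrl mouse, with 44 to 61 counts a mouse. The log2 fold change was -1.06 (SE 0.24, adjusted p = 0.0200, edgeR) and over all 6 PBS mice -1.28 (adjusted p = 0.0414). FLX mice had 0.257 to 0.491 FPKM, each above all 5 PBS mice in FPKM, the lowest only just (log2 fold change 0.62, adjusted p = 0.314, edgeR). In FPKM groups failed to overlap for 3.52% of all genes in PBS versus Ctrl and 2.92% in FLX versus PBS. As a share of total counts FLX replicate 6 (41 of 52073640) lay below PBS replicate 2 (61 of 77027129), so that FLX and PBS overlapped there. Leaving out Ctrl replicate 5 or PBS replicate 1 ended the PBS versus Ctrl call (adjusted p = 0.0502 and 0.0626).

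Bdkrb2, the bradykinin B2 receptor, whose ligand ACE breaks down, was 0.151 to 0.390 FPKM in the Ctrl group and 0.784, 0.337, 0.324, 1.51 and 0.545 FPKM in the 5 PBS mice. Its log2 fold change was 1.47 (SE 0.39, adjusted p = 0.0426, edgeR), and PBS replicates 1, 4 and 5 exceeded the whole Ctrl group. The call was lost in 9 of the 17 fits that each left out 1 mouse, those without Ctrl replicates 1, 2, 3, 4 or 6, PBS replicates 1 or 4, or FLX replicates 2 or 3, with an adjusted p of 0.184 at most. Anpep, aminopeptidase N, which acts after Enpep, had 0.32 (adjusted p = 0.0572, and 0.0166 and 0.0332 without Ctrl replicate 3 and PBS replicate 3). It was called by DESeq2 and by limma with 5 PBS mice, while over all 6 edgeR gave 0.22 (adjusted p = 0.293). Agtrap, an angiotensin receptor-binding protein, had -0.17 (adjusted p = 0.276) and Lnpep, an angiotensin IV-binding aminopeptidase, 0.03 (adjusted p = 0.950).

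**Figure D3:**
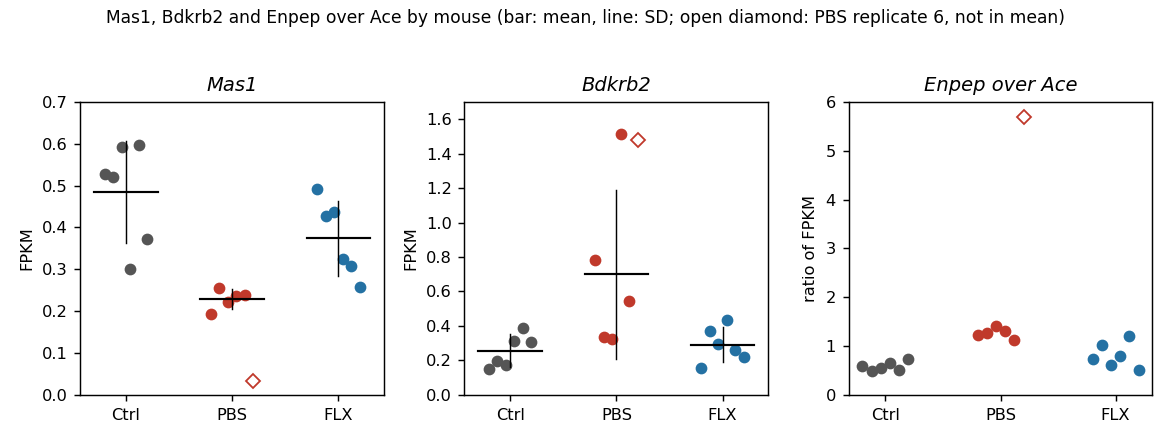
FPKM of Mas1 and Bdkrb2 and the ratio of Enpep to Ace in every mouse, by group. Bars are means and vertical lines SDs of 6 Ctrl, 5 PBS and 6 FLX mice in the first 2 panels, the open diamond is PBS replicate 6, and the ratio was 1.13 to 1.41 in the 5 PBS mice against 0.486 to 0.729 in the Ctrl group.

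Enpep and Ace, read together, placed the 5 PBS mice apart from the Ctrl group. The ratio of Enpep to Ace in FPKM was 0.486 to 0.729 in the Ctrl group (median 0.578) and 1.13 to 1.41 in the 5 PBS mice (median 1.27), and PBS replicate 6 had 5.68. In the FLX group it was 0.520 to 1.21 (median 0.769), which overlapped the PBS range. The ratio was chosen after both genes had been seen and is given without a test.

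PBS replicate 6 lay outside the range of the other 17 mice for 5 of the 9 members, against 29.2% of the 20251 genes tested. Ren1, Atp6ap2 and Agtr1b were above that range and Ace and Mme below it. Agtr1b, with 23 counts against at most 16, did not pass the filter on low counts and is not among the 20251. In this mouse Ren1 was 452 FPKM, 8.13 times the median of the other 17 mice, whose highest was 98.7 FPKM. Ace at 3.51 FPKM, Mme at 4.06 FPKM and Mas1 at 0.0329 FPKM were each below the other 17 mice. Agt, Agtr1a, Agtr2 and Enpep lay inside the range of the others. Akr1b7, an aldose reductase gene of renin cells that was chosen after its value was seen, was at 50.3 FPKM against 1.06 to 4.598 FPKM. The 25 genes of renin cells and renin's control, with Akr1b7 among them, summed to 212 FPKM against 139 to 183 FPKM. Akr1b7 gave 50.3 FPKM of that sum, and without it the sum lay inside the range of the other 17 mice. Akr1b7 thus does not stand for the whole list. Akr1b7 is also a gene of the adrenal cortex. Of the 9 adrenal cortex genes listed, Akr1b7 and Mc2r, the corticotropin receptor (0.685 FPKM against 0 to 0.367 FPKM), were above the other 17 mice in this mouse. The other 7 were inside their range, with Cyp11b2 and Nr5a1 at 0 and Cyp11b1 at 0.0369 FPKM.

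The same mouse differed in its cell markers. Its proximal tubule markers summed to 1229 FPKM against 2090 to 2631 FPKM in the other 17, smooth muscle markers to 149 against 50.6 to 131, injured tubule markers to 65.7 against 1.75 to 14.6 and neutrophil markers to 65.4 against 0.219 to 26.1. Macula densa markers summed to 126 against 165 to 298. Podocyte markers summed to 93.4 against 41.3 to 79.4 and mesangium markers to 16.2 against 6.37 to 14.0. Endothelial markers summed to 68.1 against 27.6 to 59.1. The sums of macrophage, erythroid, liver, fat and adrenal medulla markers were inside the range of the other 17. The part of these markers in the Ren1 and Ace values of this mouse was not tested.

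**Figure D4:**
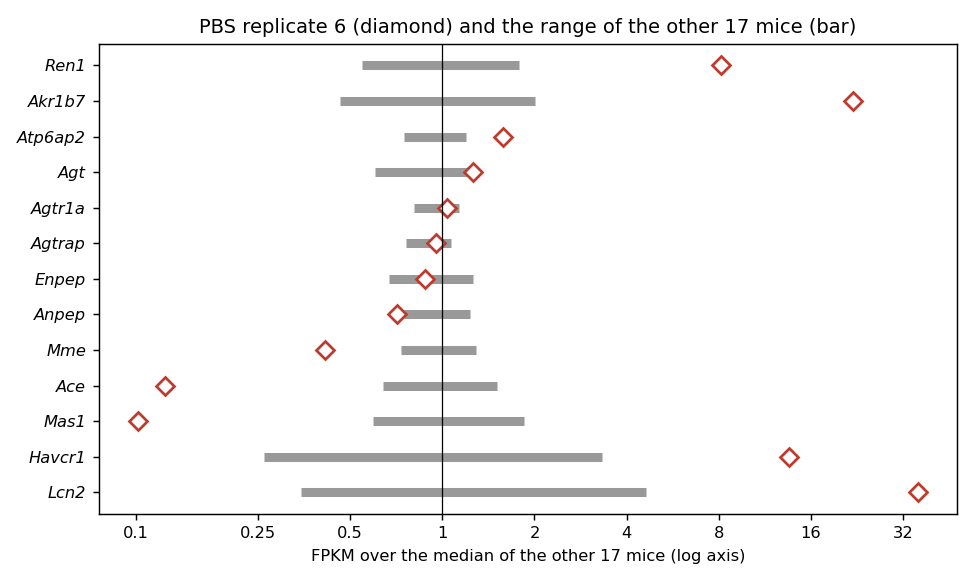
Level in PBS replicate 6 (diamond) over the median of the other 17 mice, and the range of those 17 (bar), on a log axis, for members, other pathway genes, Akr1b7 and the injury genes Havcr1 and Lcn2, which were chosen after their values were seen. Ren1 lay at 8.13 times the median and Ace at 0.124 times, and Agtr1a and Enpep lay inside the range of the other mice.

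Within groups, the members did not move as 1 block. Over the 17 mice, after each group mean was taken off, Pearson's r of log2(FPKM + 0.1) between pairs of members was highest for Agt with Mme (0.684), Enpep with Atp6ap2 (0.665) and Agtr1a with Enpep (0.602). Ren1 had r between -0.200 and 0.275 with the 6 others. These are descriptions over mice of 3 groups that share libraries and depth, and no p is given.

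The genes most like each member by the same measure, out of 12115 with a mean of at least 1 FPKM, differed from member to member. For Agt they were the serpin Serpina1f (0.943), A4gnt (0.919) and Irx2 (0.906), and for Ace the nucleotidase Entpd5 (0.910), the protease inhibitor Pzp (0.883) and Mpp6 (0.882). Enpep was nearest to Fam107b (0.888), the angiogenic factor Vegfa (0.870) and Ppp6r1 (0.864). Agtr1a was nearest to Ror1 (0.898), Tspan14 (0.898) and the sulfate transporter Slc26a1 (0.875), and Mme to Gramd1b (0.906), Id4 (0.903) and Gpm6a (0.901). Atp6ap2 was nearest to Anapc1 (0.861), Tpcn1 (0.858) and Trak1 (0.852), and Ren1, with the lowest values, to Dmap1 (0.794), Nup62 (0.766) and Gm12946 (0.742).

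Markers of other cells were read in the same fits. By edgeR neutrophil genes gave 3 of 6 tested called in PBS versus Ctrl, S100a8, S100a9 and Ngp, all higher, against 3.81% of all genes. Ngp had 0 counts in all 6 Ctrl mice and at most 61 in the 5 PBS mice. It passed the filter on low counts only through defeated mice, so that its call is no separate support. Of these 3 genes DESeq2 and limma called S100a8 and S100a9, against 1413 of all 20251 genes by DESeq2 and 766 of 18775 by limma. In FLX versus PBS edgeR called 1, S100a8, lower, against 0.726% of all genes. The 8 listed summed to 1.29 to 3.21 FPKM in the Ctrl group and 7.15 to 26.1 FPKM in the 5 PBS mice. Erythroid genes were 5 of 5 lower in FLX versus PBS at an unadjusted p under 0.05, against 11.1% of all genes in either direction. Their median log2 fold change was -2.70. DESeq2 called all 5, against 498 of all 20251 genes. By edgeR and limma 0 were called, against 0.726% of genes by edgeR and 278 of 18775 by limma. The erythroid genes summed to 145 to 2129 FPKM in the 5 PBS mice and 32.3 to 295 FPKM in the FLX group. In FLX versus Ctrl edgeR called 3 of 8 endothelial genes, Tek, Flt1 and Tie1, all higher, against 3.67% of all genes. With all 6 PBS mice Tek alone was called, against 1.77% of all genes (adjusted p = 0.229 for Flt1 and 0.196 for Tie1). Of the 25 genes of renin cells and renin's control, edgeR called 1 in FLX versus Ctrl, against 3.67% of all genes. It was the transcription factor Creb1, higher (0.46, adjusted p = 0.0375). Single genes were called by edgeR in other lists. In PBS versus Ctrl Serpine2 (1 of 5 mesangium genes) and Elovl3 (1 of 9 fat genes) were higher, and limma did not call Elovl3. In FLX versus Ctrl Avpr1a (1 of 9 macula densa genes) and Vcam1 (1 of 5 injured tubule genes) were higher. Ttr (1 of 6 liver genes) was lower there. The shares over all genes were 3.81% in PBS versus Ctrl and 3.67% in FLX versus Ctrl. In PBS versus Ctrl edgeR called 0 of 6 macrophage, 0 of 7 podocyte and 0 of 4 tested adrenal cortex genes. At an unadjusted p under 0.05 there were 0, 5 and 2, against 17.9% of all genes. DESeq2 called 0, 1 and 0, against 1413 of all 20251 genes, and limma 0 in each, against 766 of 18775. The part of these markers in the members' values was not tested.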

How the data were processed

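Poly(A) RNA of the right kidney was sequenced in 18 mice, in dUTP-stranded libraries, and the table holds estimated counts and FPKM per gene on GRCm38. Per the study's methods the authors made the deposited values with fastp, HISAT-3N and StringTie, while the submitters' processing notes list cutadapt 1.9, HISAT2 2.0.4, UMI-tools, StringTie 1.3.4d, DESeq2 and edgeR. The tool behind the deposited estimated counts, and whether it used strand, are not given in the sources used here. FPKM values were scaled by the authors to transcript length and mapped reads.

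Estimated counts were rounded and tested with edgeR 4.0.16 (R 4.3.3), with TMM scaling, filterByExpr (minimum count 10, minimum total 15), 1 fit over all 3 groups and Benjamini-Hochberg adjustment over 20251 genes. Intervals of fold changes are 95% intervals from the quasi-likelihood degrees of freedom. DESeq2 1.42.0 and limma 3.58.1, the latter on log2(FPKM + 0.1), were alternatives, and the steps were tested on simulated data. Agtr1b was tested with an exact permutation test in Python 3.11.15. Groups came from the sample labels. The labels number the samples within each group, and p-values measure the spread between these samples. Same-numbered mice were not treated as pairs in the main fit. PBS replicate 6 was left out of the main fit, as described above. Estimated counts carry counting error that depth limits, and FLX replicates 3 to 6 were the shallowest. Members, gene lists and tests were chosen with earlier results of these data known. Named genes were the 9 members, the other pathway genes called in any comparison with Anpep, Agtrap and Lnpep, called genes of the marker lists (at most 4 a list), and the 3 genes nearest to each member. Of the pathway list, 1 gene is not reported here.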

Additional observations from a re-analysis of the deposited data

Results flagged for a closer look

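A mouse was picked out where it lay far from the other mice of its group by Dixon's test at the 95% level. The groups of values share the same mice, so that the 1 in 20 that chance gives for a single group does not apply to their count. Of 42 groups of values tested, 9 had such a mouse. In PBS replicate 6 these were Ren1 at 452 FPKM, Ace at 3.51 FPKM, Mme at 4.06 FPKM, Atp6ap2 at 49.5 FPKM and Mas1 at 0.0329 FPKM. In FLX replicate 5 they were Ren1 at 98.7 FPKM and Enpep at 27.1 FPKM. Ctrl replicate 5 stood apart for Agtr1b at 0.0337 FPKM, where the other 5 Ctrl mice were at 0, so that any count would stand apart and the test says nothing here, and Ctrl replicate 3 for Lnpep at 5.01 FPKM.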

How the results depend on the processing

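After seeing the data, 4 settings with all 6 PBS mice were added: DESeq2, limma, the replicate block, and only FLX replicates 1 and 2. Members called in PBS versus Ctrl (2) were 4 by DESeq2, 0 with the replicate block, 0 with 6 PBS mice and the block or FLX replicates 1 and 2, 1 with 6 PBS mice by limma, and 1 to 4 leaving out 1 mouse. In FLX versus Ctrl (0) they were 1 by DESeq2 and limma (pseudocount 0.1) and 0 to 1 leaving out 1 mouse. Other pathway genes in PBS versus Ctrl (2) were 1 without a filter, by limma with a pseudocount of 1, with the block, with only the 2 groups and with FLX replicates 1 and 2, 0 with 6 PBS mice and FLX replicates 1 and 2, and 0 to 3 leaving out 1 mouse. In FLX versus PBS (0) they were 1 by DESeq2 with 5 or 6 PBS mice. In FLX versus Ctrl (0) they were 1 by DESeq2, 1 by limma at each pseudocount and with 6 PBS mice, and 0 to 1 leaving out 1 mouse. Fewer mice are fitted in the settings with FLX replicates 1 and 2, and otherwise the cause was not tested.

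Log2 fold changes near 0 turned. Agtr1a in FLX versus PBS was -0.0076 with 6 PBS mice, -0.0069 without a filter, -0.0017 with the block, -0.0089 (DESeq2) and -0.0061 (block) with 6 PBS mice, and -0.0657 to 0.0409 leaving out 1 mouse. In FLX versus Ctrl it was 0.0429, 0.0399 and 0.0432 by limma (0.0429 with 6 PBS mice), 0.0077 with FLX replicates 1 and 2, and -0.0741 to 0.0021 leaving out 1 mouse, and in PBS versus Ctrl -0.0801 to 0.0266. Agtr2 in PBS versus Ctrl was -0.1195 with 6 PBS mice and FLX replicates 1 and 2 and -0.7289 to 0.4436 leaving out 1 mouse, in FLX versus PBS -0.6169 to 0.5573, and in FLX versus Ctrl 0.0217 with the block and -0.4711 to 0.1138. Mme in FLX versus PBS was 0.1086 with 6 PBS mice by limma, and in FLX versus Ctrl -0.0025 with FLX replicates 1 and 2 and -0.0119 to 0.1344 leaving out 1 mouse. Lnpep in PBS versus Ctrl was -0.0186 with upper-quartile scaling and -0.0421 to 0.2252 leaving out 1 mouse, in FLX versus PBS 0.011, 0.0087 and 0.0113 by limma, and in FLX versus Ctrl 0.0653, 0.0444 and 0.0684 by limma (0.0653 with 6 PBS mice) and -0.0962 to 0.1456. Anpep in FLX versus PBS was 0.0163 with 6 PBS mice by limma. Agtrap in FLX versus PBS was -0.0464 with FLX replicates 1 and 2, -0.0504 also with 6 PBS mice, and -0.0474 to 0.0616 leaving out 1 mouse. Bdkrb2 in FLX versus Ctrl was -0.0044 and -0.0043 in those settings and -0.0395 to 0.257. Agtr1b in FLX versus PBS was 0.241 at a pseudocount of 0.01.

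Of all genes, 772 were called in PBS versus Ctrl, and 1413 by DESeq2, 419 with the block, 496 with only the 2 groups, 486 with 6 PBS mice and FLX replicates 1 and 2, 1637 with 6 PBS mice by DESeq2, and 388 to 1662 leaving out 1 mouse. In FLX versus PBS 147 were called, and 498 by DESeq2, 278, 256 and 266 by limma, 67 with the block, 88 without a filter, 95 with only the 2 groups, 0 with FLX replicates 1 and 2 with either number of PBS mice, 518, 264 and 48 with 6 PBS mice by DESeq2, limma and the block, and 47 to 250 leaving out 1 mouse. In FLX versus Ctrl 744 were called, and 354 with 6 PBS mice, 378 without a filter, 1615 by DESeq2, 1226, 1239 and 1196 by limma, 258 with the block, 4 and 2 with FLX replicates 1 and 2, 99 with 6 PBS mice and the block, and 271 to 3099 leaving out 1 mouse. Same-numbered mice had deviations correlated at -0.3014 to 0.3817 (median -0.0516), and other mice of different groups at -0.388 to 0.3216 (median 0.00325). Of 17 mice 5 correlated best with their own number. These values do not exclude a pairing by number, and the labels state none.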
